A study of Mus musculus with 15 samples.

Results

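Mitochondrial gene expression draws on 2 genomes, and this account sets their transcripts side by side in the mouse aortic valve. One class was the mitochondrially encoded genes, taken as every gene whose deposited name begins with mt- or with the mitochondrial sequence accession used as a prefix by older annotation. The other class was the nuclear genes for proteins of the mitochondrial ribosome, taken as every name of Mrpl or Mrps followed by a number. The rule used names alone and no measured value. It found 98 of the 18073 genes in the table, of which 24 were mitochondrially encoded and 74 were mitochondrial ribosomal protein genes (45 with a large subunit name and 29 with a small subunit name).

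RNA-seq was done on aortic valve tissue of 15 C57BL/6 mice aged 2 months, with 3 leaflets taken from each mouse, in 4 groups. The groups cross Notch1 genotype (wild type, or heterozygous, written N1+/-) with Terc status (wild type, or the group labelled mTRG2). Terc is the RNA template of telomerase, and G2 denotes the second generation of mice bred without it, whose telomeres are short. The groups were N1WT/mTRWT (4 mice, here "long wild type"), N1+/-/mTRWT (4 mice, "long heterozygous"), N1WT/mTRG2 (3 mice, "short wild type") and N1+/-/mTRG2 (4 mice, "short heterozygous"). Both germline changes act in every cell of the mouse, and the leaflets hold a mixture of cell types.

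The mitochondrial genome is a small circle that encodes a few hydrophobic subunits of the respiratory chain and ATP synthase, the tRNAs that read their codons, and the 2 RNAs of the mitochondrial ribosome. Both of its strands are transcribed as long precursors, and many messages are released when the tRNAs that lie between them are excised. All proteins of the mitochondrial ribosome are encoded in the nucleus, made in the cytosol and imported, so a working ribosome needs products of both genomes.

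The sequences of a few tRNA genes of the mitochondrial genome are shown because each is shorter than a sequencing read of 100 bp. The tRNA genes of the class run from 59 to 75 nt. The sequences below are from GENCODE release M21 on GRCm38, 5′ to 3′ as the tRNA reads, with the anticodon in capitals. mt-Tf (chrM:1-68, plus strand) carries phenylalanine, mt-Te (chrM:14071-14139, minus strand) glutamic acid and mt-Tl1 (chrM:2676-2750, plus strand) leucine. These were among the tRNA rows with the largest difference or the highest level. mt-Tk (chrM:7700-7764, plus strand) carries lysine and mt-Tc (chrM:5192-5257, minus strand) cysteine. They stood lower in the short wild-type group than in the long wild-type group.
mt-Tf: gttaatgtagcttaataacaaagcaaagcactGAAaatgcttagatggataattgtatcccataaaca
mt-Te: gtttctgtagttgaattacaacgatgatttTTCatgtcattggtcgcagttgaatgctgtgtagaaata
mt-Tl1: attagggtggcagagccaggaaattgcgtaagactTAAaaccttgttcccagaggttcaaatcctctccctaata
mt-Tk: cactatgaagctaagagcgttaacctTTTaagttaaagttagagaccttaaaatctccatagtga
mt-Tc: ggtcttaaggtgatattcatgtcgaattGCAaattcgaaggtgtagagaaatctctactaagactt

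The values are the authors' FPKM, fragments per kilobase of gene scaled to the mapped fragments of the library, with 1 value for each gene and group. The libraries of a group were combined before deposit, so the spread between mice and the depth of each library are unknown. No test, error or replicate check could be made here, and differences below are log2(FPKM + 1) of one group minus that of another. They understate the change of genes with low values. A second kind of information is the authors' own yes-or-no call for each gene in each of 5 comparisons. Notch1 stood at 39.1 FPKM in long wild-type, 25.1 in long heterozygous, 16.6 in short wild-type and 23.3 in short heterozygous leaflets, so it was lower in heterozygous leaflets with long telomeres and higher with short ones. Terc stood at 1.42 and 4.52 FPKM in the long groups and was listed at 0 in both short groups. Over all 18073 genes the median difference ranged from -0.24 to 0.09 across comparisons, and the values below are to be read against it.

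The coverage of the mitochondrial genome was partial. Of 37 annotated mitochondrial genes, 23 were matched by identifier, comprising 3 of 13 protein-coding genes, 20 of 22 tRNA genes and neither rRNA gene. The other 14, the annotated mt-Atp6 among them, had no row with their identifier and were not analysed under it. The longest matched gene was 348 nt (mt-Nd3), followed by mt-Nd4l at 297 nt and mt-Atp8 at 204 nt. The row named mt-Atp6 carries an identifier that the annotation does not hold, so its length and position are unknown and its values are given under that name only. The exons of 7 of the 23 matched genes overlap another gene, and the row named mt-Atp6 could not be checked. mt-Atp8 overlaps the annotated mt-Atp6 and mt-Nd4l overlaps mt-Nd4, and reads in the shared bases cannot be told apart. mt-Nd3 and mt-Nd4l each have an annotated nuclear copy of near-identical sequence, so their counts are uncertain to that extent.

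All 24 mitochondrially encoded genes stood higher in short heterozygous than in long heterozygous leaflets, where 34.3% of all genes did. Of the 24, 21 stood higher in both short groups than in either long group, as 10.7% of all genes did. The summed FPKM of the class was 61641 in long wild-type, 41737 in long heterozygous, 189505 in short wild-type and 206463 in short heterozygous leaflets. That was 14.4%, 10%, 32.5% and 35% of the summed FPKM of the whole table. The short groups thus held the larger shares, and the long heterozygous group the smallest. Such a sum is no share of reads, since FPKM divides by length and short genes weigh more for each fragment. The summed FPKM of all other genes ranged only from 366143 to 393645. In whole leaflets, fewer cells of a type and less RNA in each cell cannot be told apart.

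The 4 rows with protein-coding names held similar levels. mt-Nd3, a membrane subunit of complex I, stood at 3487 FPKM in long wild-type, 3482 in long heterozygous, 11107 in short wild-type and 14522 in short heterozygous leaflets. mt-Nd4l, also a membrane subunit of complex I, stood at 2980, 2035, 9544 and 10114 FPKM in the same order. mt-Atp8, a small subunit of ATP synthase, stood at 4565, 4473, 12248 and 15616 FPKM. In each of these 3 genes both short groups were far above both long groups, and short heterozygous leaflets held the highest value. For mt-Nd4l the values may depend on how reads were divided with its nuclear copy Gm10222. That copy stood only 0.07 higher in the wild-type telomere comparison. mt-Atp6, named for the ATP synthase subunit that forms the proton channel, stood at 2221, 2050.2, 11607 and 11898 FPKM. In the authors' deposited table mt-Atp6 was called in short against long telomeres in wild-type leaflets (log2 difference 2.39), in heterozygous leaflets (2.54), and in short heterozygous against long wild-type leaflets (2.42). mt-Nd3, mt-Nd4l and mt-Atp8 were not called in the authors' deposited table, with differences of 1.67, 1.68 and 1.42 in wild-type leaflets and 2.06, 2.31 and 1.80 in heterozygous leaflets.

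**Figure D1:**
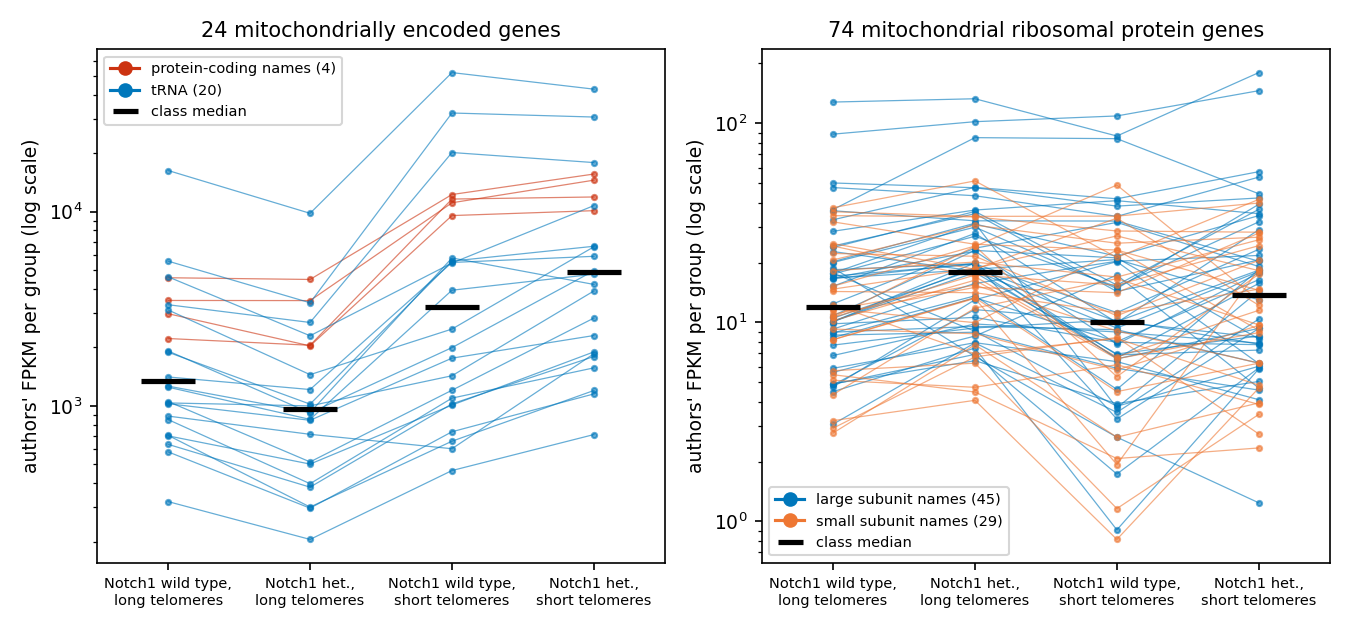
FPKM of each gene in the 4 groups on a log axis, with the 24 mitochondrially encoded genes on the left and the 74 mitochondrial ribosomal protein genes on the right. Each line is 1 gene and each point 1 deposited group value without error. Black bars mark class medians, which were 1335, 961, 3211 and 4860 FPKM on the left and 12, 17.9, 10.1 and 13.7 on the right.

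In heterozygous leaflets, short against long telomeres gave a median difference of 2.19 over the 24 mitochondrially encoded genes, where the median of all genes was -0.24. The range was narrow, from 1.38 to 3.18. All 24 were at least 2-fold higher, a size that 4.71% of all genes reached, and 15 were at least 4-fold higher, which 0.813% of all genes reached. In the authors' deposited table, 4 of the 24 were called in this comparison, mt-Atp6, mt-Tf, mt-Te and mt-Tm, and all 4 rose. Of all genes, 0.0775% were called higher, 14 genes in total. The rows called and not called were close in size, since mt-Tq stood 2.48 higher without a call and mt-Atp6 2.54 higher with one.

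In wild-type leaflets the same comparison gave a median of 0.74 against -0.23 for all genes, and the genes differed widely among themselves. The range ran from -0.56 to 2.60, and the standard deviation over the 24 genes was 0.95, where it was 0.40 in heterozygous leaflets. Of the 24, 21 stood higher (36.6% of all genes did), 11 at least 2-fold (8.9%) and 4 at least 4-fold (2.32%). The median of the protein-coding rows was 1.67 and that of the tRNA rows was 0.53. In the authors' deposited table mt-Atp6, mt-Tf and mt-Te rose in this comparison, 3 of 124 genes called, and 0.437% of all genes were called higher.

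The tRNA genes held both the highest FPKM values and the largest differences of the class. Each is shorter than a read, so fragments counted there can reach into flanking sequence. These values cannot be read as amounts of mature tRNA. mt-Tf, the first gene after the control region, stood at 5558 FPKM in long wild-type, 3393 in long heterozygous, 32203 in short wild-type and 30698 in short heterozygous leaflets. mt-Te stood at 3315, 2686, 20156 and 17891 FPKM. Both short groups were several-fold above both long groups in these genes. The differences of short against long telomeres were 2.53 in wild-type and 3.18 in heterozygous leaflets for mt-Tf, and 2.60 and 2.74 for mt-Te, all called in the authors' deposited table. mt-Tm, which carries methionine, stood at 1887, 1019.8, 5562 and 6631 FPKM. In the authors' deposited table mt-Tm was called in heterozygous leaflets (2.70) and not in wild-type leaflets (1.56). Whether the difference itself varied between the Notch1 genotypes was not tested.

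mt-Tl1, which lies directly after the large rRNA gene, had the highest level of the class, at 16282, 9801, 52005 and 42733 FPKM. Its differences of 1.68 and 2.12 were not called in the authors' deposited table. mt-Td, which carries aspartic acid, stood at 1263, 924, 5774 and 4216 FPKM, a difference of 2.19 in both genotypes. For these genes the short wild-type group was the highest of the 4, as it was for mt-Tf and mt-Te. The other 20 genes of the class were highest in short heterozygous leaflets, as were 19% of all genes.

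A second set of tRNA genes was high in short heterozygous leaflets alone. mt-Tk stood at 885, 713, 601 and 1853 FPKM, so short wild-type leaflets held its lowest value. mt-Tc stood at 3116, 1447, 2484 and 6590 FPKM, and mt-Tn, which carries asparagine, at 1916, 919, 1993 and 4959 FPKM. Their wild-type differences of short against long telomeres were -0.56, -0.33 and 0.06. In heterozygous leaflets the same differences were 1.38, 2.19 and 2.43. mt-Ts2, a serine tRNA, was the other gene below its long wild-type value, at 704, 301, 657 and 1199 FPKM. The lowest levels of the class were those of mt-Tt, a threonine tRNA, at 321, 205, 464 and 711 FPKM and mt-Tl2, a leucine tRNA, at 579, 297, 735 and 1151 FPKM. Even these 2 stood far above the median FPKM of the ribosomal protein genes. Genes shorter than a read weigh more for each fragment, so this is no comparison of RNA amounts.

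The Notch1 genotype went with opposite differences in the mitochondrially encoded genes at the 2 telomere lengths. With long telomeres, none of the 24 stood higher in heterozygous than in wild-type leaflets, where 55.9% of all genes did. The median was -0.60 against 0.09 for all genes, and 6 of the 24 were at least 2-fold lower (7.53% of all genes). mt-Ts2 (-1.22), mt-Tc (-1.11) and mt-Th (-1.09), the histidine tRNA, had the largest differences, and mt-Nd3 (0.00) and mt-Atp8 (-0.03) the smallest. With short telomeres, 20 of the 24 stood higher in heterozygous leaflets, where 53.5% of all genes did, with a median of 0.45 against 0.06. mt-Tk (1.62), mt-Tg (1.45), the glycine tRNA, and mt-Tc (1.41) led, while mt-Td (-0.45), mt-Tl1 (-0.28), mt-Te (-0.17) and mt-Tf (-0.07) were below 0. None of the 24 was called in the authors' deposited table in either comparison, in which 0.415% and 0.476% of all genes were called.

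Across the 4 groups, 20 of the 24 mitochondrially encoded genes were lower in heterozygous leaflets with long telomeres and higher with short ones, a pattern held by 21.9% of all genes. Long heterozygous leaflets held the lowest value of 23 of the 24, mt-Tk being the exception, where 11.7% of all genes were lowest there. The difference between the heterozygous and the wild-type telomere differences had a median of 1.2 over the class and of 0.00 over all genes. It was 0.38 over the protein-coding rows and 1.45 over the tRNA rows, with mt-Tc (2.51), mt-Tn (2.37) and mt-Ta (2.27), the alanine tRNA, at the top and mt-Td (0.00) at the bottom. With 1 value for each group this difference of differences has no error. The telomere and the Notch1 comparisons reuse the same 4 values of each gene and are not independent.

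Leaflets with both changes set against those with neither gave a median of 1.47 over the 24 mitochondrially encoded genes, where all genes had -0.16. All 24 stood higher (40.1% of all genes did), 21 at least 2-fold (7.48%), over a range from 0.77 for mt-Ts2 to 2.47 for mt-Tf. In the authors' deposited table mt-Atp6, mt-Tf and mt-Te rose in this comparison, in which 0.216% of all genes were called higher.

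Neighbouring tRNA genes on the mitochondrial genome had closer differences than other pairs, while a tRNA and an mRNA row side by side could differ widely. Genes at most 50 nt apart were taken as a run. The run mt-Tw, mt-Ta, mt-Tn, mt-Tc and mt-Ty, which holds tRNAs on both strands, had wild-type telomere differences from -0.33 to 0.69 and heterozygous ones from 2.19 to 2.46. The run mt-Ti, mt-Tq and mt-Tm, which lies before it, had wild-type differences from 1.56 to 1.96 and heterozygous ones from 2.28 to 2.70. These runs thus stood apart in wild-type leaflets and close together in heterozygous leaflets. The run mt-Th, mt-Ts2 and mt-Tl2 spanned -0.10 to 0.37 in wild-type and 1.95 to 1.99 in heterozygous leaflets. Over the 9 pairs of adjacent genes of the same type within runs, the median absolute gap between their differences was 0.38 in wild-type and 0.13 in heterozygous leaflets. Over the 184 other pairs it was 1.02 and 0.45. Adjacent genes can share fragments, and the part of shared fragments in this likeness was not tested.

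In wild-type leaflets the telomere differences of mRNA rows lay above those of the tRNAs beside them. mt-Atp8 stood at 1.42 and its neighbour mt-Tk at -0.56, and mt-Nd3 stood at 1.67 between mt-Tg at 0.46 and mt-Tr, the arginine tRNA, at 0.78. In heterozygous leaflets the same genes lay closer, with mt-Atp8 at 1.80 and mt-Tk at 1.38, and with mt-Nd3 at 2.06, mt-Tg at 1.96 and mt-Tr at 1.45. By strand, the 13 tRNA genes on the plus strand had medians of 0.69 in wild-type and 1.99 in heterozygous leaflets. The 7 on the minus strand had medians of 0.24 and 2.43. The library kit does not keep the strand, so reads of the 2 strands at one place are not separated.

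**Figure D2:**
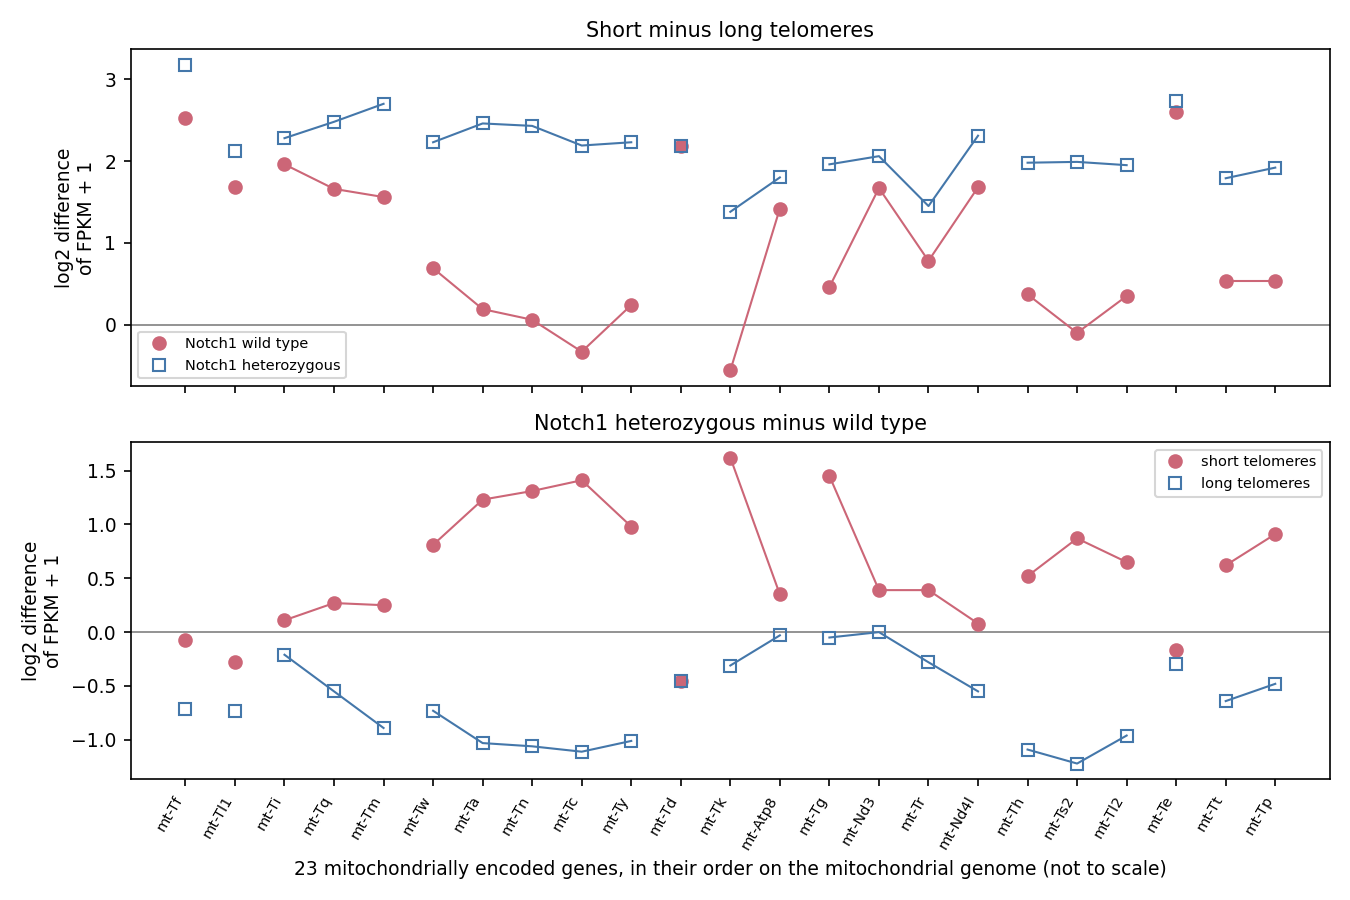
Log2 differences of FPKM + 1 for the 23 mitochondrially encoded genes with a known place, in genome order and not to scale, with short minus long telomeres above and heterozygous minus wild type below. Lines join genes at most 50 nt apart, and points carry no error. In the upper panel the heterozygous squares stay between 1.38 and 3.18, while the wild-type circles reach from -0.56 to 2.60.

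Several lists of marker genes moved with the groups as well. The 12 cardiomyocyte markers summed to 4893 FPKM in long wild-type, 6130 in long heterozygous, 5105 in short wild-type and 7980 in short heterozygous leaflets, with none at 0. Their median telomere difference was 0.02 in wild-type and 0.26 in heterozygous leaflets. Of the 12, 7 and 10 stood higher (36.6% and 34.3% of all genes). Like the mitochondrially encoded sum, the cardiomyocyte sum was highest in short heterozygous leaflets. Unlike it, the cardiomyocyte sum was lowest in long wild-type leaflets. The 6 erythroid markers summed to 11720, 4950, 21575 and 11052 FPKM. The 8 neutrophil markers summed to 16.4, 45, 1781 and 172 FPKM, with Ngp and Camp at 0 in long wild-type leaflets. The 8 endothelial markers summed to 295, 251, 375 and 461 FPKM, in the same order of groups as the mitochondrially encoded sum, and the 9 interstitial cell markers to 6044, 4960, 8013 and 6201. The 8 T cell markers summed to 109, 1018, 121 and 19.8 FPKM. All 8 were at least 2-fold higher in long heterozygous than in long wild-type leaflets (10.9% of all genes). The 7 platelet markers summed to 3120, 122, 1996 and 400, the 8 smooth muscle markers to 1252, 280, 625 and 493, and the 8 macrophage markers to 1067, 1541, 1373 and 2767. In wild-type leaflets the macrophage and interstitial sums were higher with short telomeres, but most of their markers were not. Of the 8 macrophage markers 1 stood higher and of the 9 interstitial markers 4 (36.6% of all genes), with medians of -0.30 and -0.03. The 5 adipocyte markers summed to 107, 169, 288 and 627 FPKM, with 2 at 0 in short heterozygous leaflets and a heterozygous telomere median of -0.36. The 5 melanocyte markers summed to 151, 173, 99.9 and 30.2. A list of 8 immediate early genes summed to 850, 778, 2120 and 1393. All 8 stood higher with short telomeres in both genotypes (36.6% and 34.3% of all genes). The platelet, smooth muscle, erythroid, endothelial, interstitial and immediate early sums were lowest in long heterozygous leaflets, as was the mitochondrially encoded sum. Unlike it, the platelet and smooth muscle sums were highest in long wild-type leaflets. The part of these cell types and lists in the mitochondrial values was not tested.

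The mitochondrial ribosomal protein genes did not share the pattern of the mitochondrial genome. Their median level was 12 FPKM in long wild-type, 17.9 in long heterozygous, 10.1 in short wild-type and 13.7 in short heterozygous leaflets. Their summed FPKM was between 0.218% and 0.398% of the table. Long heterozygous leaflets, where the mitochondrially encoded genes were lowest, held the lowest value of 1 of the 74 (11.7% of all genes). They held the highest value of 28, which is near the 33.3% of all genes and not particular to the class. None of the 74 was called in the authors' deposited table in any of the 5 comparisons. The shares of all genes called were 0.415% and 0.476% for the Notch1 comparison with long and short telomeres, 0.686% and 0.432% for the telomere comparison in wild-type and heterozygous leaflets, and 0.526% for both changes against neither. Of the 73 matched to the annotation, the exons of 30 overlap another annotated gene, on the opposite strand in 26. Without strand these values can hold reads of the neighbour.

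Of short against long telomeres, the median of the 74 ribosomal protein genes was -0.30 in wild-type and -0.29 in heterozygous leaflets, close to the medians of all genes at -0.23 and -0.24. In wild-type leaflets 28 stood higher (36.6% of all genes), 8 at least 2-fold (8.9%), and 17 were at least 2-fold lower (20.9% of all genes). In heterozygous leaflets 22 stood higher (34.3% of all genes), none at least 2-fold (4.71%), and 8 were at least 2-fold lower (16.8% of all genes). Both short groups stood below both long groups for 23 of the 74 (33.3% of all genes) and above them for 2 (10.7%). When the groups were scaled to equal medians over all genes that are no members, 35 and 36 of the 74 stood higher in wild-type and heterozygous leaflets. In wild-type leaflets 13 were then at least 2-fold higher and 10 lower, the opposite balance to that before scaling, and in heterozygous leaflets 1 and 3. The scaling multiplies every gene of a group by the same factor, and the shares of all genes under it were not computed. The scaled counts therefore cannot be read as a trait of the class. The class medians were -0.07 and -0.01, beside -0.06 and -0.04 for all genes. Under that scaling the mitochondrially encoded medians were 1.0 and 2.48.

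Single members differed more than the class. Mrpl38, a large subunit protein without a bacterial counterpart, stood at 18.8 FPKM in long wild-type, 6.75 in long heterozygous, 2.65 in short wild-type and 1.24 in short heterozygous leaflets. Its value was lower with each change, and the difference was -2.44 for the telomere comparison in wild-type leaflets, -1.79 in heterozygous leaflets and -3.14 for both changes against neither. Mrpl16, a protein of the large subunit core, stood at 20.2, 31.5, 3.72 and 14.4 FPKM, with both short groups below both long groups (-2.17 in wild-type leaflets). Mrpl44, a large subunit protein with an RNase III fold, stood at 17.7, 9.02, 3.79 and 6.02 FPKM (-1.97), and overlaps Wdfy1 on the opposite strand. Mrpl22, which lines the exit tunnel of the large subunit, stood at 17.1, 19.6, 6.87 and 7.26 FPKM, with a heterozygous difference of -1.32.

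Mrps31, Mrpl9, Mrps27 and Mrpl49 stood highest in short wild-type leaflets. Mrps31 is a small subunit protein. It stood at 10.6 FPKM in long wild-type, 24.1 in long heterozygous, 49 in short wild-type and 12.9 in short heterozygous leaflets, a wild-type telomere difference of 2.11 and a Notch1 difference of -1.85 with short telomeres. Mrpl9, a large subunit protein with a bacterial counterpart, stood at 4.74, 13, 20.2 and 6.21 FPKM (1.89 and -1.56) and overlaps Oaz3. Mrps27, a small subunit protein of the RNA-binding pentatricopeptide family, stood at 4.34, 11.8, 16.6 and 9.72 FPKM (1.72 in wild-type leaflets). In each of these genes the heterozygous leaflets with short telomeres lay below the wild-type ones. Mrpl49, a large subunit protein, stood at 5.61, 8.54, 17.3 and 4.68 FPKM and overlaps Syvn1. Mrpl21, at 10.8, 23, 21.1 and 8.27 FPKM, was lower in short than in long heterozygous leaflets (-1.37) and overlaps Ighmbp2.

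The highest heterozygous telomere differences in the class were small. Mrps9, a small subunit protein, stood at 11, 15, 14.1 and 28.1 FPKM (0.86 in heterozygous leaflets). Mrpl30 stood at 88.3, 102, 109 and 146 FPKM (0.52), and Mrps14 at 10.6, 17.3, 15.4 and 24.3 FPKM (0.46). These were the largest of the 74, and all lay below 1.38, the smallest heterozygous difference among the mitochondrially encoded genes. Mrpl52 had the highest mean level, at 128, 133, 86.4 and 180 FPKM. Mrps10 and Mrps35 had the lowest, at 3.21, 4.06, 0.812 and 4.68 FPKM and at 5.46, 4.47, 2.07 and 2.34 FPKM.

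**Figure D3:**
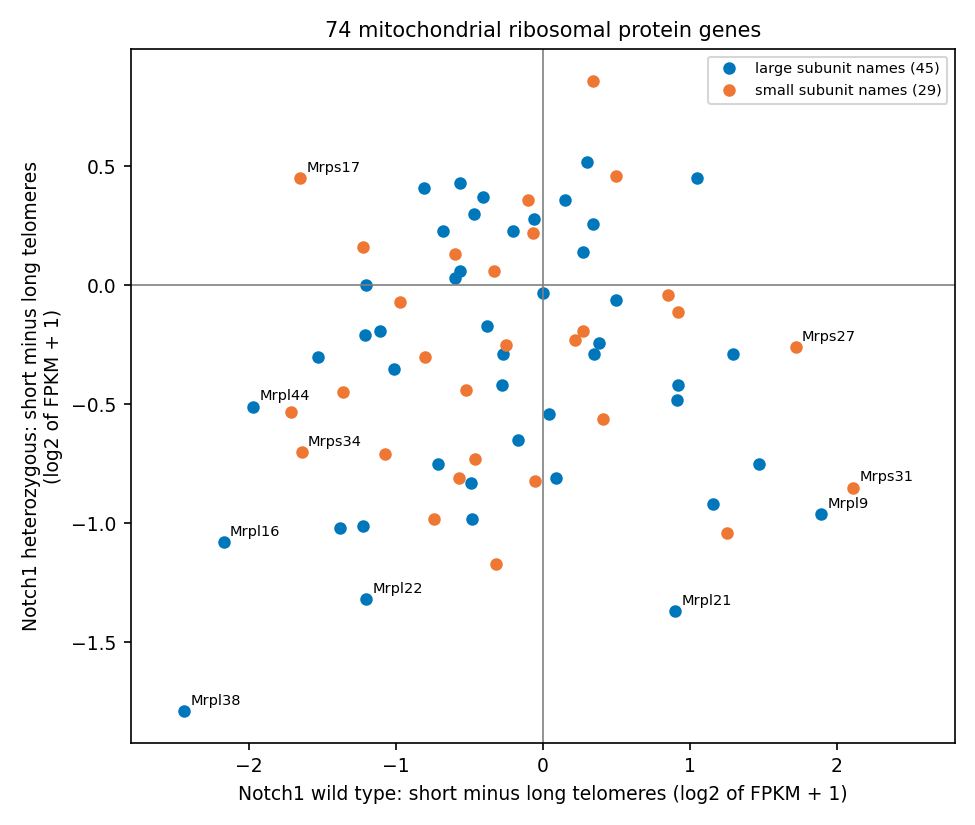
Short minus long telomeres for the 74 mitochondrial ribosomal protein genes, as log2 differences of FPKM + 1, in wild-type leaflets on the horizontal axis and heterozygous leaflets on the vertical axis. Each point is 1 gene without error, and genes with a large difference on either axis are named, except Mrps15 (-1.71 in wild-type leaflets). Mrpl38 lies at -2.44 and -1.79, and Mrps31 at 2.11 and -0.85.

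Heterozygous against wild-type leaflets gave medians of 0.42 with long and 0.39 with short telomeres over the 74 ribosomal protein genes, against 0.09 and 0.06 for all genes. With long telomeres 56 stood higher (55.9% of all genes), 8 at least 2-fold (10.9%), and 1 was at least 2-fold lower (7.53%). With short telomeres 47 stood higher (53.5%), 18 at least 2-fold (12.5%), and 7 were at least 2-fold lower (10.8%). The spread over members was larger with short telomeres, with a standard deviation of 0.94 against 0.51. Over all genes it was 1.0 and 0.90.

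With long telomeres, Mrpl9 (1.29), Mrps27 (1.26) and Mrps11 (1.21) stood highest in heterozygous leaflets relative to wild type. Mrps11, a small subunit protein whose exons overlap the neighbouring member Mrpl46, stood at 2.78, 7.72, 2.65 and 3.94 FPKM. Mrpl38 (-1.35), Mrpl44 (-0.90) and Mrps18b (-0.75), one of the 3 mammalian relatives of bacterial S18, stood lowest. With short telomeres, Mrps17, at 8.18, 13.2, 1.93 and 18.5 FPKM, had the largest difference (2.73). Mrpl47 followed at 4.49, 7.43, 0.907 and 5.84 FPKM (1.84), and Mrpl23 at 8.86, 13.6, 4.61 and 18.4 FPKM (1.79). Mrps17, Mrpl47 and Mrpl23 were each lowest in short wild-type leaflets, the opposite of Mrps31 and Mrpl9. Leaflets with both changes against neither gave a median of 0.11 over the class (-0.16 over all genes), with Mrpl19 (1.48), Mrps9 (1.28) and Mrpl39 (1.15) at the top.

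Medians are given by the subunit in the gene name and by number, without a test of the differences between them. The names were not checked against the place of each protein. Large subunit names had medians of 0.53 and 0.44 for the Notch1 comparison with long and short telomeres, and -0.28 and -0.29 for the telomere comparison in wild-type and heterozygous leaflets. Small subunit names had 0.27, 0.37, -0.32 and -0.26. In the Notch1 comparison with long telomeres 39 of 45 large and 17 of 29 small subunit names stood higher, where 55.9% of all genes did. The 44 members whose numbers fall in the bacterial series had 0.43, 0.43, -0.26 and -0.22, and the 30 numbered beyond it 0.38, 0.11, -0.37 and -0.47. Mrpl12, of the stalk that engages translation factors, stood at 36.4, 32.4, 32.3 and 20.3 FPKM. Mrps12, of the decoding site, stood at 32, 24.7, 23.1 and 14.5 FPKM. Both were lowest in short heterozygous leaflets. The 84 proteins of the cytosolic ribosome had medians of 0.43, -0.02, 0.36 and -0.05.

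**Figure D4:**
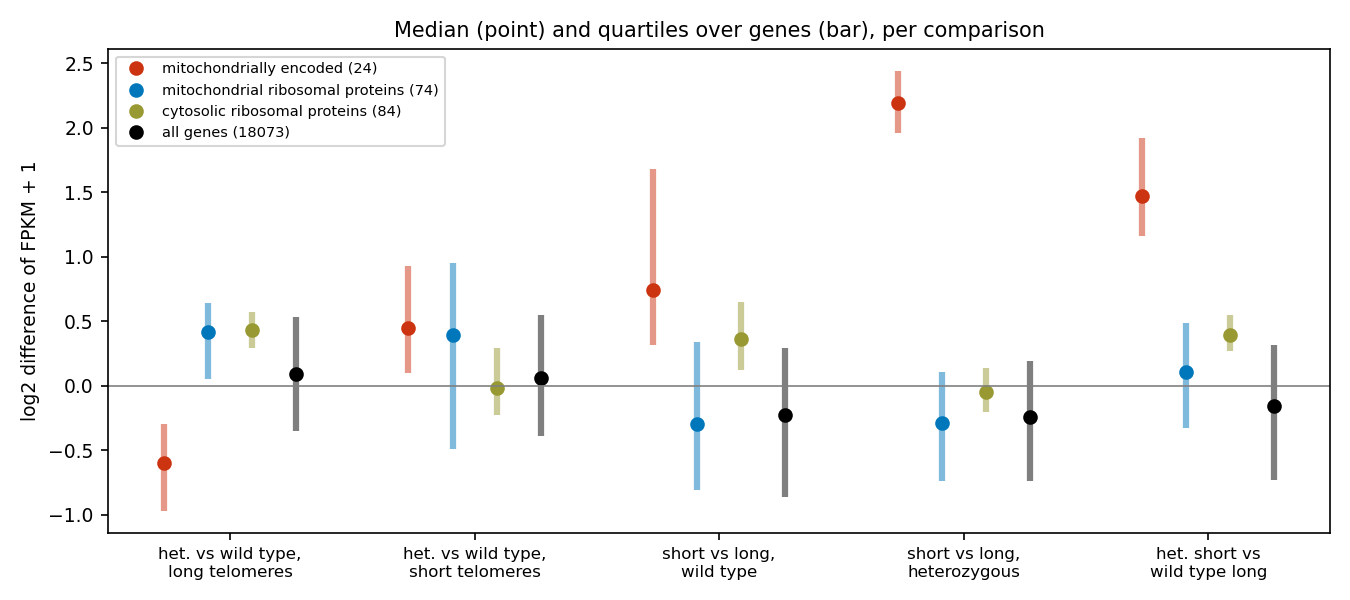
Median (point) and quartiles over genes (bar) of the log2 difference of FPKM + 1 in 5 comparisons, for mitochondrially encoded genes, mitochondrial ribosomal proteins, cytosolic ribosomal proteins and all genes. Bars show the spread over genes and not over mice. The mitochondrially encoded median goes from -0.60 on the left to 2.19 for short against long telomeres in heterozygous leaflets, where the mitochondrial ribosomal proteins have -0.29.

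Promoters of the ribosomal protein genes were searched for 3 motifs that are known from nuclear genes for mitochondrial proteins. Windows of 300 bases (250 before and 50 after the start, RefSeq, GRCm38.p6) were found for 65 of the 74. The NRF1 consensus occurred, on either strand, in 5 of 65 windows (7.69%) and in 1.31% of 27025 promoters. The ETS letters CCGGAAG occurred in 22 windows (33.8%, and 9.12% of all promoters) and the YY1 consensus in 6 (9.23% and 0.858%). No motif contains another. In the Notch1 comparison with short telomeres the median was -0.05 with the ETS letters and 0.59 without, -0.42 and 0.49 for YY1, and 0.55 and 0.41 for NRF1. In the wild-type telomere comparison it was -0.06 and -0.47 for ETS, 0.16 and -0.46 for YY1, and -0.06 and -0.35 for NRF1. These comparisons were chosen after their values were seen, for their wide ETS and YY1 gaps. A match is a run of letters and no evidence of binding.

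The 250 bases before the start are shown for 2 members that both hold the NRF1 consensus, marked in capitals, and whose values went opposite ways in wild-type leaflets. Mrpl9 (chr3:94443086-94443335, plus strand) stood 1.89 higher with short telomeres, and Mrpl44 (chr1:79775768-79776017, plus strand) stood at -1.97.
Mrpl9: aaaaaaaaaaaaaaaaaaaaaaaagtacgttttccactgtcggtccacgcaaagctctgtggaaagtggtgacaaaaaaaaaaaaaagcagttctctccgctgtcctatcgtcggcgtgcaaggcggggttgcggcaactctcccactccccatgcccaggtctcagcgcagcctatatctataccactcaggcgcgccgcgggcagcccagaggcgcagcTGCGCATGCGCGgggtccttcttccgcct
Mrpl44: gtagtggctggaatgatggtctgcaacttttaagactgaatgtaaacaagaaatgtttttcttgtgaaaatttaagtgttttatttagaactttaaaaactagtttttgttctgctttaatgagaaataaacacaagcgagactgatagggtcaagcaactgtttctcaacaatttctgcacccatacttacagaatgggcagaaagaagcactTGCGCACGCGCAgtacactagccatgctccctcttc

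No gene of the following lists of other nuclear genes for mitochondrial proteins was called in the authors' deposited table, and with 0.415% to 0.686% of all genes called, lists of this size would hold few calls. The 17 genes of mitochondrial transcription and replication had a telomere median of -0.31 in wild-type and -0.67 in heterozygous leaflets. None of the 17 stood higher with short telomeres in heterozygous leaflets (34.3% of all genes). Polrmt, the mitochondrial RNA polymerase, stood at 8.85 FPKM in long wild-type, 8.22 in long heterozygous, 7.57 in short wild-type and 1.08 in short heterozygous leaflets. Top1mt, the mitochondrial topoisomerase, stood at 1.95, 2.76, 1.03 and 0.244 FPKM. Both were lowest in short heterozygous leaflets, where most mitochondrially encoded genes were highest. Polg, the replicative DNA polymerase, stood at 9.36, 7.76, 4.2 and 4.16 FPKM. Tfam, which packages mitochondrial DNA and starts its transcription, stood at 4.27, 7.19, 8.24 and 4.42 FPKM.

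The 26 genes of mitochondrial RNA processing and stability had telomere medians of -0.31 and -0.36. Of the 26, 8 and 4 stood higher (36.6% and 34.3% of all genes). Trmu, which modifies the wobble base of mitochondrial tRNAs, stood at 7.95, 6.42, 0.885 and 2.58 FPKM, and Pus1, a pseudouridine synthase for tRNA, at 4.32, 1.29, 0.574 and 0.682 FPKM. Both were lower in both short groups than in the long groups of the same genotype. The 12 translation factors had medians of -0.44 and -0.36, Gfm2, a ribosome recycling factor, standing at 8.73, 8.98, 2.61 and 6.23 FPKM. The 18 aminoacyl-tRNA synthetases had 0.35 and -0.62, and none stood higher with short telomeres in heterozygous leaflets (34.3% of all genes). Nars2, which charges mt-Tn, stood at 1.79, 3.17, 10.6 and 1.75 FPKM and Yars2, which charges mt-Ty, at 4.56, 10.2, 0.436 and 5.05 FPKM.

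Further genes listed with the mitochondrial ribosome under other names (8 genes) had medians of -0.26 and -0.37. Of these, Oxa1l inserts proteins into the inner membrane and is no ribosomal subunit. Gadd45gip1, a large subunit protein, stood at 8.98, 8, 1.2 and 5.76 FPKM, and Dap3, a small subunit protein, at 6.92, 11.2, 5.34 and 5.28 FPKM. The 10 regulators of mitochondrial biogenesis had -0.41 and -0.31, Nrf1 standing at 6.07, 7.73, 2.36 and 1.7 FPKM, lower in both short groups. The 75 nuclear genes of the respiratory chain had 0.10 and 0.13, and 0.57 for both changes against neither. The 4 mitochondrial rows with protein-coding names, of complex I and ATP synthase only, had 1.67, 2.19 and 1.92 in the same comparisons. No test of the difference between these lists was possible.

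Single genes of these lists with large telomere differences went either way. Tefm (listed as 1110002N22Rik), the elongation factor of the mitochondrial RNA polymerase, stood at 1.23 FPKM in long wild-type, 8.46 in long heterozygous, 4.11 in short wild-type and 7.46 in short heterozygous leaflets. Oxa1l, which inserts newly made proteins into the inner membrane, stood at 38, 56.2, 19.4 and 37.4 FPKM. Taco1 (listed as Ccdc44), a translational activator of mt-Co1, stood at 9.47, 5.84, 3.66 and 5.36 FPKM. The last 2 were lowest in short wild-type leaflets. Aars2, which charges mt-Ta, stood at 2.9, 4.16, 1.66 and 1.09 FPKM. It was lowest in short heterozygous leaflets, where mt-Ta was highest. Ndufa12 of complex I stood at 45.7, 47.1, 16.5 and 69.6 FPKM, and Uqcrb of complex III at 69, 79.4, 58.6 and 156 FPKM, both highest in short heterozygous and lowest in short wild-type leaflets. Ndufb2, also of complex I, had the opposite placing of the short groups, at 9.81, 11.6, 31.1 and 11.2 FPKM. The 14 genes of mitochondrial membranes and import had telomere medians of -0.10 and -0.20, and Timm44, of the import motor, stood at 9.95, 11.7, 3.48 and 4.85 FPKM.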

How the data were processed

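Aortic valve leaflets were digested with collagenase, and RNA was amplified by single primer isothermal amplification from random and poly-T primers with a kit that does not keep the strand, per the labels' protocols. Reads were paired-end, 100 bp. The submitters' processing notes list FastQC, TopHat, SAMtools, Picard and mm9 but no version or role for any. For the quantifier, the annotation and the test, the entry is: not given in the sources used here.

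Per the file headers, FPKM was deposited once for each gene and group, beside 5 columns of 0 or 1 that are read here as calls made by the authors. The header of column 8 is repeated in column 9. FPKM ratios tied each call column to its pair of groups: the smallest ratio among called genes was 4.25 to 4.79 for the pair chosen and at most 1.08 for any other pair. The planned test needed values for each library and was replaced by a description.

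Differences were computed as log2(FPKM + 1), with a pseudocount of 1. Identifiers of 16962 of 18073 genes (93.9%) matched GENCODE M21 (GRCm38), whose build differs from the authors', so coordinates are printed only for sequences. Nuclear copies were found with BLAST 2.17.0. The code ran under Python 3.11.15 (pandas 2.3.3, numpy 2.4.6; plots with matplotlib 3.10.9) and was tested on simulated data. Members, lists and motifs were chosen with earlier results of these data known. The rule for named genes took all protein-coding rows, genes called by the authors, the 3 highest and 3 lowest differences of each comparison (tRNA and ribosomal proteins), the 2 highest and 2 lowest mean levels, and 2 genes for each other list with the largest telomere difference. The text leaves out some of these. Mrpl12, Mrps12, Tfam, mt-Ta, mt-Tn, mt-Tq, Vwf and Erg were chosen after their values were seen. Replicates count mice, which the deposited values do not separate.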

Additional observations from a re-analysis of the deposited data

How the results depend on the processing

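Of 95 alternative values for 30 results (medians and counts of the 2 classes in 5 comparisons), 87 kept their direction and stayed within 1.5-fold of the value reported, 8 moved further and none reversed. This tally includes values with little or no room to move. Many counts were 0 to begin with, and a count has no direction to reverse. The limit of 10 FPKM kept all 24 mitochondrially encoded genes, so their medians under it could not change. For medians the 1.5-fold is taken on the unlogged fold, so small log2 medians can move by a larger ratio: the ribosomal protein median for short against long telomeres went from -0.30 to -0.07 in wild-type and from -0.29 to -0.01 in heterozygous leaflets with median scaling, and the mitochondrially encoded median for Notch1 with long telomeres from -0.60 to -0.07 without tRNA genes. The alternatives were a pseudocount of 0.1, scaling to equal medians over genes that are no members, and scaling to equal sums without the mitochondrially encoded genes. Others were genes with a mean of at least 10 FPKM, and leaving out tRNA genes or, chosen after seeing the data, the row named mt-Atp6. The last added 8 genes listed with the mitochondrial ribosome under other names (82 genes). Among them is Oxa1l, which is no ribosomal subunit. Without tRNA genes, the mitochondrially encoded median for short against long telomeres in wild-type leaflets was 1.67 in place of 0.74. With median scaling, 8 mitochondrially encoded genes in place of 5 were at least 4-fold higher with both changes than with neither. The remaining moves are small counts of ribosomal protein genes past 4-fold. With a pseudocount of 0.1, 3 in place of 1 were higher in heterozygous leaflets with short telomeres. For short against long telomeres in wild-type leaflets, 2 in place of 1 were higher with either a pseudocount of 0.1 or median scaling. In the same comparison 6 with the pseudocount and 1 with median scaling, in place of 2, were lower. In heterozygous leaflets 1 in place of 0 was lower with the pseudocount. Beyond the changed construction, the cause was not tested. No paired analysis was possible because the deposited columns hold 1 value per group, and leaving out single mice was not run for the same reason. The depth is unknown, so how precise a low value is cannot be stated.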

Other observations

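Nuclear copies of mitochondrial sequence are rows of the same table. Of 17 annotated nuclear genes with at least 90% identity to a mitochondrial gene over at least 60 nt, 8 were in the table. Gm13340, a copy of mt-Co1 (97.6% identity over 1545 nt), stood at 47.5 FPKM in long wild-type, 27.1 in long heterozygous, 265 in short wild-type and 248 in short heterozygous leaflets. In the authors' deposited table Gm13340 was called in both telomere comparisons (2.45 and 3.15) and with both changes against neither (2.36). Gm10222, a copy of mt-Nd4l (100% identity over 294 nt), stood at 298, 143, 313 and 975 FPKM, and Gm13341, a copy of mt-Co2, at 36.2, 22.8, 61.5 and 134 FPKM. Gm13340 was high in both short groups, while Gm10222 and Gm13341 were highest in short heterozygous leaflets.

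The 5 genes outside both classes whose 4 group values lay closest to the median protein-coding mitochondrial row, of 6768 genes with a mean of at least 10 FPKM, were Tm4sf1, Kdr, C7, Cd300lg and Cav1. Likeness was the distance between mean-centred log2 values over 4 groups, from 0.243 for Tm4sf1 to 0.381 for Cav1. Tm4sf1, a membrane protein of endothelial and other cells, stood at 182, 157, 574 and 580 FPKM. Kdr, a VEGF receptor of endothelial cells, stood at 12.6, 9.87, 34.8 and 41.9 FPKM. Other endothelial markers did not all share this order, with Vwf at 23.7, 5.17, 24.2 and 6.21 FPKM and Erg at 36.4, 27.9, 26.5 and 45.3 FPKM. Cav1, the coat protein of caveolae, stood at 44.3, 53.8, 170 and 190 FPKM. The choice of the nearest genes fixes their order of groups, and with 4 points for each gene such likeness is a description.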
